A study of Homo sapiens with 6 samples.

Results

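The regions described here were the promoters of isolated lncRNA genes. A member was a gene of type lncRNA in the GENCODE 44 annotation of hg38, on chromosomes 1 to 22 or X, whose transcription start site (TSS), taken from the gene record, had no TSS of any protein-coding transcript within 10 kb. Of 18756 lncRNA genes 12075 met this rule, and the other 6681, called near-coding below, did not. The region of a member was the window of 3 kb on either side of its TSS. The annotation alone decided which genes met this rule, and their peaks took no part in that. The rule itself was chosen with earlier results of these data known. Windows can overlap: 1894 members shared a merged region with another member, up to 7 in 1 region, and such members can be counted on the same peak.

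ChIP-seq, in which DNA bound to antibody-captured histones is sequenced, had been carried out on cells labelled HepG2, a line from a human liver tumour, with pan antibodies against acetylated lysine (Kac) and benzoylated lysine (Kbz). Cells were untreated (control) or received 10 mM sodium benzoate (SB) for 24 h, and nothing else distinguished the groups in the labels. Each of the 6 groups (input, Kac and Kbz, control and SB) held 1 library, and the peak lists of control Kac, SB Kac and SB Kbz were used. Per the labels, peak calling in the control Kbz library returned nothing, so Kbz had no untreated counterpart.

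Control Kac had 70326 peaks, SB Kac had 63282 and Kbz had 24308. Their sequencing depth is unknown, and with 1 library per group no share below could be set against replicate error. Shares carry Wilson 95% intervals, which cover counting error only. The cell label was checked at the same windows of marker genes. Of 14 liver markers, APOA1, APOA2, APOH, TTR, AHSG, TF and HNF4A had Kac peaks in both conditions, and APOA1 and APOA2 also had Kbz. The defining liver genes ALB, AFP, APOB, SERPINA1, FGA, FGB and FOXA2 had no peak in any list. Kac peaks in both conditions were present at 3 of 7 blood, 3 of 5 neuronal, 3 of 4 muscle and 3 of 4 fibroblast markers. Over all protein-coding genes 71.7% had control Kac and 70.6% SB Kac, so these counts alone do not identify a lineage. The part of the cells' identity in the results below was not tested.

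Long noncoding RNAs are transcripts without a known protein product, and many are spliced and polyadenylated like messenger RNAs. Many lncRNA genes start beside a protein-coding gene and share its promoter chromatin, which is why the isolated ones are treated apart here: a peak in their windows cannot belong to a coding start within the window. Acetylation of histone lysines opens chromatin and marks active promoters and enhancers, and distal enhancers can themselves give rise to noncoding transcripts. Benzoylation puts the bulkier benzoyl group on lysine and is fed by benzoyl-CoA, which cells make from benzoate. Many mammalian promoters lie in CpG islands, stretches in which the CpG dinucleotide has been kept, while tissue-restricted promoters and enhancers often have few CpGs.

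Promoter sequences of 5 members are shown because CpG content is the feature along which the members split below. Each runs 5′ to 3′ on the gene's strand from 250 bases before the TSS to 50 after it in hg38, with CpG dinucleotides in capitals. SNHG26 (chr7:22853876-22854175, plus strand, 19 CpGs), LINC02323 (chr14:102545004-102545303, plus strand, 26 CpGs) and MIRLET7IHG (chr12:62602502-62602801, plus strand, 27 CpGs) had strong Kbz. LINC02601 (chrX:41275489-41275788, plus strand, 4 CpGs) had the strongest SB Kac peak of the members with a symbol. Its Kbz was strong as well, above that of MIRLET7IHG, so strong Kbz was not confined to the sequences shown with many CpGs. LINC02439 (chr12:118833487-118833786, minus strand, 4 CpGs) had Kbz with no Kac.
SNHG26: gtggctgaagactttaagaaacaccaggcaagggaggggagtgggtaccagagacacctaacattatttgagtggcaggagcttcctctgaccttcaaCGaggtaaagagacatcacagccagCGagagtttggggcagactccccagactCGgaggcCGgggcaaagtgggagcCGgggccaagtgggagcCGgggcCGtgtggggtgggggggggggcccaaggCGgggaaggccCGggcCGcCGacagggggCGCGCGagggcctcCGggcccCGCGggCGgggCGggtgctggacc
LINC02323: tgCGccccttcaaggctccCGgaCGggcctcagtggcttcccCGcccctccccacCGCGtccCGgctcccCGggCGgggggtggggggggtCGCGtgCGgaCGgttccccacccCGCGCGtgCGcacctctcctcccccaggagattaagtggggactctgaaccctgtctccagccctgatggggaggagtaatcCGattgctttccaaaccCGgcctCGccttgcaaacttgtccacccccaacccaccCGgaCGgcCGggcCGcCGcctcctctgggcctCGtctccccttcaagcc
MIRLET7IHG: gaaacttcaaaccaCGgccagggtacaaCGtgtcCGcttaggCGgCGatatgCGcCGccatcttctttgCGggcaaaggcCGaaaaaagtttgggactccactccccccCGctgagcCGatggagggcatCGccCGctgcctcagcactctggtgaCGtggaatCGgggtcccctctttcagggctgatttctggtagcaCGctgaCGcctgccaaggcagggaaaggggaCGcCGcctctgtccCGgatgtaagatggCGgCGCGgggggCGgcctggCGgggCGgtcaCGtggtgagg
LINC02601: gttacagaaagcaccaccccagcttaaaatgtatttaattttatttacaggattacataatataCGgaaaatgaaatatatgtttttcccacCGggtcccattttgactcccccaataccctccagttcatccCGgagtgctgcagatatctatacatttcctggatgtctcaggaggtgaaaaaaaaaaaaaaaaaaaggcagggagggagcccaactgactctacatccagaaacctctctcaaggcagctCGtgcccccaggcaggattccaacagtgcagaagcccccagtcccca
LINC02439: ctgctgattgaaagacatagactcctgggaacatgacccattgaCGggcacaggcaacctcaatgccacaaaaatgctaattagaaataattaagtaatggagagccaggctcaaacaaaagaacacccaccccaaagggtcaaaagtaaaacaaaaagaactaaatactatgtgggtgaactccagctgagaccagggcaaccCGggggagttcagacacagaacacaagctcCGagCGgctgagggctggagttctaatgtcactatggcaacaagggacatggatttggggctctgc

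To see how often these promoters carried each mark, a window was counted when it shared at least 1 bp with a peak. Control Kac was present at 2982 members, 24.7% (23.9 to 25.5). SB Kac was present at 2669, 22.1% (21.4 to 22.9), and Kbz at 1297, 10.7% (10.2 to 11.3). All of these shares lay below those of the windows of all 62062 genes, of which 42.1% had control Kac, 40.8% SB Kac and 29.9% Kbz. Near-coding lncRNA genes had the marks far more often, with control Kac at 68.5%, SB Kac at 68.3% and Kbz at 53.7%, close to the 71.7%, 70.6% and 58.8% of the 19970 protein-coding genes. Coding genes with no other coding gene's TSS within 10 kb, which match the members in isolation, still had Kac in 66.3% (control) and 65.0% (SB) and Kbz in 52.4%. Isolated genes of the other noncoding types, such as pseudogenes and small RNA genes, lay below the members, at 12.0%, 10.6% and 3.54%. The intervals of the members overlapped those of none of these classes.

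**Figure D1:**
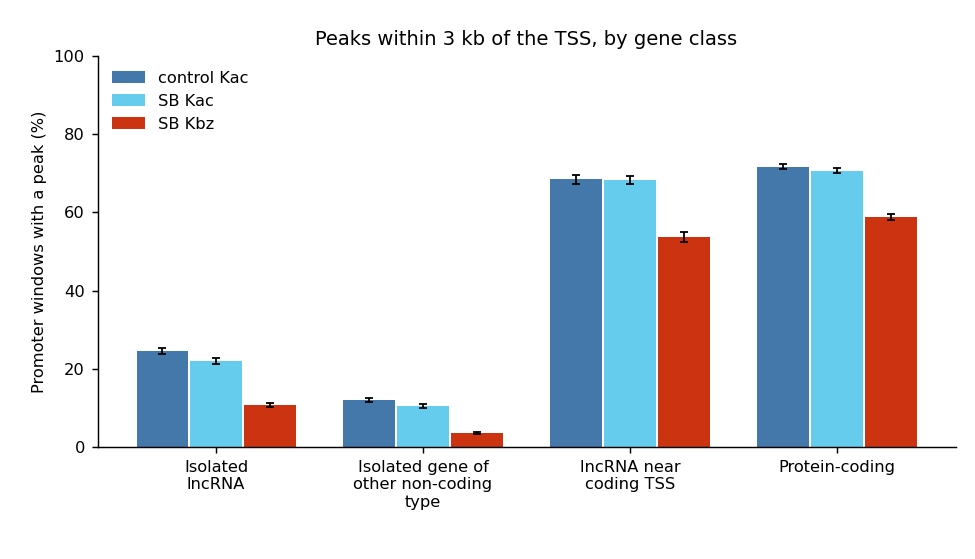
Share of promoter windows (%) with at least 1 bp of a control Kac, SB Kac or SB Kbz peak for 4 gene classes. Bars start at 0 and the error bars are Wilson 95% intervals for counting error (1 library per list). Isolated lncRNA promoters stood at 24.7%, 22.1% and 10.7%, between isolated genes of other noncoding types and the near-coding lncRNA genes.

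LncRNA genes whose nearest coding TSS lay 7.5 to 10 kb away, just outside the rule, had control Kac in 35.2%, SB Kac in 35.5% and Kbz in 15.4% of windows. Those 10 to 12.5 kb away, just inside it, had 32.2%, 30.9% and 14.7%.

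No peak of any list lay in 8660 member windows (71.7%). All 3 lists met in 1228 (10.2%), and 1029 had Kac in both conditions and no Kbz. Control Kac alone was found at 697 members, SB Kac alone at 392 and Kbz alone at 21. Kbz rarely stood apart from SB Kac: 96.2% of Kbz members also had SB Kac, against 99.6% of Kbz windows of coding genes. Of the 2669 members with SB Kac 1248, or 46.8% (44.9 to 48.7), had Kbz, against 72.7% over all genes, 78.3% (77.0 to 79.4) at near-coding lncRNA genes, 83.0% (82.3 to 83.6) at coding genes and 30.6% (28.6 to 32.7) at isolated genes of other noncoding types. An acetylated isolated lncRNA promoter thus held a Kbz peak less often than an acetylated coding promoter, by more than counting error. Both shares depend on list length, since the SB Kac list is the longer one. With the top 15000 peaks of each list by −log10 p, 85.7% (83.2 to 87.8) of members with Kbz had SB Kac, and 78.1% (75.4 to 80.6) of members with SB Kac had Kbz, against 89.7% (89.0 to 90.3) at coding genes with SB Kac.

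The peaks themselves were placed by the percentile of their fold (the authors' ratio of read density over background) within their own list. This gives a peak's place in that list and depends on how many weak peaks were called there, so that percentiles of different lists are not one scale. The strongest peak in a member window had a median percentile of 64.9 in either Kac list and 59.1 in the Kbz list. At coding genes the medians were 81.9, 85.3 and 67.9. Member peaks were also shorter, with medians of 1529.5, 1504 and 1162 bp against 2559.5, 2665 and 1642 bp. Strength and company went together within the members: the median SB Kac percentile was 85.1 where all 3 lists met and 46.6 where Kac was present in both conditions without Kbz.

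Peaks at the members were concentrated on the TSS, Kbz most steeply. The TSS itself lay under a control Kac peak in 12.4% of members, under SB Kac in 11.0% and under Kbz in 5.80%. Coverage was highest 150 bp downstream of the TSS for control Kac and 100 bp downstream for SB Kac and Kbz. At the edges of the window, 3 kb away, Kbz covered 0.878% of members upstream and 1.03% downstream, and its coverage at the TSS was 6.09 times the mean of the edges, against 2.33 times for SB Kac and 2.15 times for control Kac. At coding genes the same ratios were 13.3, 4.20 and 4.26. Among members with a peak in the window, the peak covered the TSS in 50.4% (control Kac), 49.6% (SB Kac) and 54.0% (Kbz) of cases, against 79.6%, 81.3% and 73.7% at coding genes. About as many acetylated members therefore had their peak beside the annotated start as over it.

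**Figure D2:**
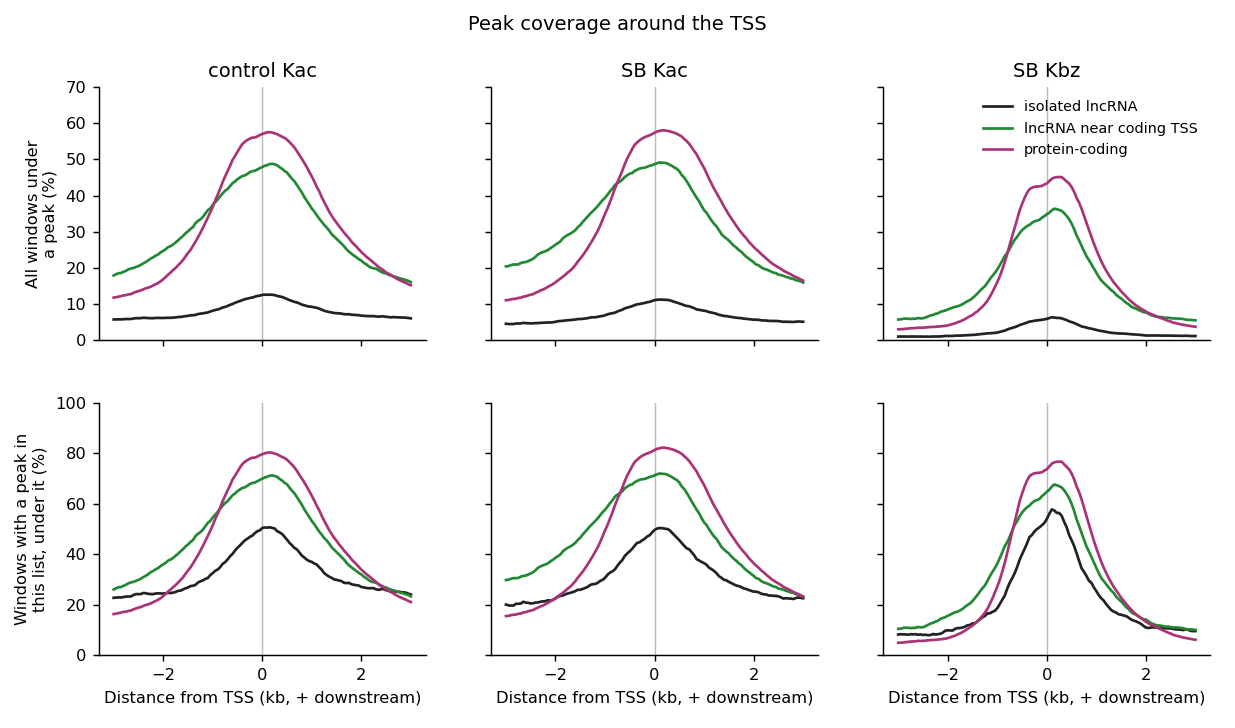
Share of windows (%) under a peak at each position within 3 kb of the TSS, in steps of 50 bp, for the 3 lists (columns). The upper row counts all windows and the lower row only windows with a peak in that list. Isolated lncRNA promoters peaked just downstream of the TSS, at 12.5% (control Kac), 11.1% (SB Kac) and 6.20% (Kbz) of all windows.

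Since weak Kac peaks held Kbz less often in every class, windows were compared within groups of similar Kac strength. All SB Kac windows of all genes were divided into 5 equal groups by the fold of their strongest SB Kac peak. The share of members with Kbz rose from 8.87% in the weakest group (100 of 1128) to 47.8% (290 of 607), 85.1% (291 of 342), 94.8% (273 of 288) and 96.7% (294 of 304) in the strongest. Coding genes went from 17.3% to 71.8%, 95.6%, 98.5% and 99.4%. By fold the difference was thus widest in the second group, with intervals of 43.8 to 51.8 for members and 70.1 to 73.4 for coding genes. It had nearly closed in the strongest. In the second group the median SB Kac fold was still 3.47 at members and 3.60 at coding genes. Grouped instead by bases of SB Kac in the window, members had Kbz in 21.8%, 48.8%, 63.1%, 68.3% and 84.9% (80.5 to 88.5). Coding genes had 34.3%, 74.1%, 89.3%, 94.3% and 97.0% (96.4 to 97.5), so by this measure the gap stayed in every group. Members also crowded into the weakest group by fold, which held 1128 of their 2669 SB Kac windows against 1696 of 14105 at coding genes.

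CpG content separated the members further. A TSS region was called CpG-rich when the 500 bp either side of the TSS had at least 50% GC and at least 0.6 of the CpGs expected from its base composition. Only 973 members (8.06%) were CpG-rich, against 43.99% of near-coding lncRNA genes and 58.0% of coding genes. CpG-rich members had SB Kac in 45.1% (42.0 to 48.3) and Kbz in 38.5% (35.5 to 41.6), and the other members in 20.1% (19.4 to 20.8) and 8.30% (7.81 to 8.83). Even so, CpG-rich members had the marks far less often than CpG-rich coding genes, at 88.8% and 79.5%. Given SB Kac, however, Kbz was present at 85.2% (81.6 to 88.2) of CpG-rich members and 89.4% (88.8 to 90.0) of CpG-rich coding genes, while it was present at 39.2% (37.2 to 41.2) of the other members and 65.6% (64.1 to 67.1) of the other coding genes.

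Within the same groups of SB Kac fold, the interval of the CpG-rich members overlapped that of the CpG-rich coding genes in each of the 5 groups. In the second group the shares with Kbz were 74.6% (63.4 to 83.3) and 75.3% (73.3 to 77.1), and in the third 96.7% and 96.3%. The remaining members, by contrast, had Kbz in 44.2% (40.1 to 48.4) of the second group and 81.0% (75.7 to 85.3) of the third, where the remaining coding genes had 63.3% (59.9 to 66.5) and 92.6% (90.4 to 94.4). Near-coding lncRNA genes outside the CpG-rich class lay at 57.2% (52.6 to 61.7) and 83.6% (79.4 to 87.1). Requiring in addition that the SB Kac peak covered the TSS brought the second group to 55.6% (49.3 to 61.7) of the remaining members and 72.1% (67.9 to 75.9) of the remaining coding genes. The gap between members and coding genes within groups of Kac fold was therefore measured outside the CpG-rich class. With the peak over the start, the gap exceeded counting error in the second group. The median fold there was 3.50 at the remaining members and 3.60 at the remaining coding genes, and the part of this difference was not tested. The intervals overlapped in the other 4 groups (15.7% against 17.1% in the first, and 83.5 to 93.4% against 92.7 to 96.6% in the third).

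**Figure D3:**
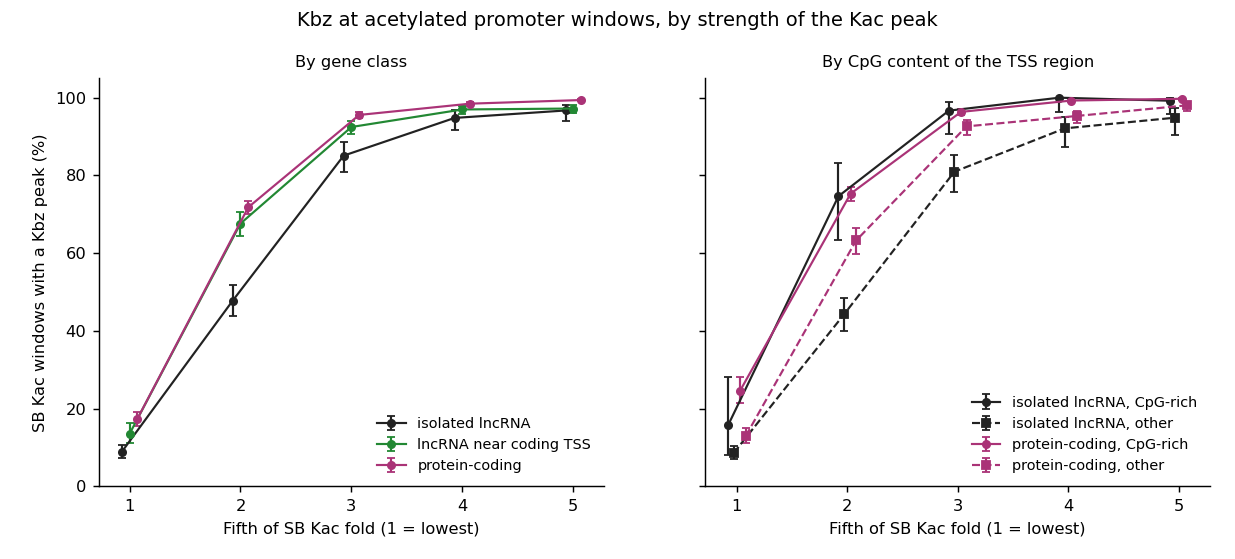
Share of SB Kac windows with a Kbz peak (%) against 5 equal groups of SB Kac fold, from 1 (weakest) to 5, with Wilson 95% intervals. On the left, isolated lncRNA promoters fell below near-coding lncRNA and coding genes, most in group 2 (47.8% against 71.8% at coding genes). On the right, the CpG-rich members ran with the CpG-rich coding genes, and the other members lay below the other coding genes.

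The sequences of the promoters, from 250 bases before to 50 after the TSS, were searched on both strands for short motifs. GGGCGG, the core of the GC box bound by SP1 and related factors, occurred in 34.9% of members with all 3 lists, 15.9% of members with Kac in both conditions and no Kbz, and 9.92% of members with no peak. It occurred in 27.5% of promoters of all genes and in 52.4% of coding promoters. The median number of CpGs in these 300 bases was 9, 4 and 3 in the same 3 sets of members and 18 at coding genes, and since GGGCGG holds a CpG the counts are not independent. TGANTCA, with any base at N, takes in the site of AP-1 factors but is wider than it. It was found in 15.1% of members with Kac in both conditions and no Kbz and 11.4% of those with all 3 lists. The share was 11.3% of members with no peak and 8.19% of all genes. TATAAA, the letters of the TATA box, was found in 10.7% of members with all 3 lists, 15.5% of those with Kac in both conditions and no Kbz, 21.2% of those with no peak and 17.1% of all genes. The median GC content of the same 3 sets of members was 55.3%, 49% and 44.7%. Since TATAAA holds no G or C, its counts are not independent of this. CCAAT (37.3% of members, 36.4% of all genes), CCGGAAG (3.04% and 6.06%), a core of ETS factor sites, and TGTTTAC (4.83% and 3.93%), a core of forkhead factor sites, were also counted. These matches are letters in a window and do not show that a factor was bound.

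The shares also differed with the place of a member in the genome. With the nearest coding TSS 10 to 20 kb away, 31.6% (29.5 to 33.7) of members had SB Kac and 14.7% (13.1 to 16.3) had Kbz. The shares were 28.7% and 14.8% at 20 to 50 kb, 24.2% and 11.3% at 50 to 100 kb, 14.8% and 7.19% at 100 to 500 kb, and 5.97% (4.68 to 7.60) and 2.64% (1.82 to 3.82) beyond 500 kb. SB Kac was thus lower at each step, and Kbz from 50 kb on. Among members with SB Kac, though, Kbz was present in 44.8%, 49.9%, 44.7%, 46.3% and 41.0% in the same order, and each of these 5 intervals overlapped every other. Among members with Kac in both conditions, Kbz was present in 52.6%, 59.3%, 50.9%, 52.8% and 46.9%. Here the intervals at 20 to 50 kb (55.8 to 62.7) and 50 to 100 kb (46.5 to 55.4) did not overlap. Distance from coding genes thus went with fewer acetylated members, while the share of acetylated members with Kbz did not fall at each step.

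Position relative to gene bodies gave a different picture. Outside coding genes lay 8860 members, 2285 were antisense inside a coding gene and 930 were inside one on the same strand. SB Kac was present in 22.7% (21.8 to 23.5), 21.6% (19.98 to 23.4) and 18.1% (15.7 to 20.7) of them. Kbz was present in 12.3% (11.7 to 13.0), 6.56% (5.62 to 7.65) and 5.91% (4.57 to 7.62), and among members with SB Kac in 52.7% (50.5 to 54.9), 27.9% (24.2 to 32.1) and 31.0% (24.5 to 38.3). Control Kac was present in 26.1% (25.2 to 27.0), 22.1% (20.4 to 23.8) and 17.7% (15.4 to 20.3) in the same order, and these intervals did not overlap. Antisense members thus had SB Kac about as often as those outside genes, but had control Kac and Kbz less often. Their SB Kac peaks were also weaker, with a median percentile of 48.6 against 68.8. In the second strength group Kbz was present at 35.7% (26.9 to 45.6) of antisense members and 50.4% (46.0 to 54.9) of members outside genes, and in the third at 75.6% (61.3 to 85.8) and 86.9% (82.5 to 90.4), where the intervals overlap. In the fourth and the fifth the shares were 96.0% and 100% of antisense members and 94.9% and 96.6% of members outside genes. In the first they were 6.33% (4.09 to 9.68) of antisense members and 10.4% (8.41 to 12.9) of members outside genes. The intervals were thus apart in the second group alone, but overlap of intervals does not show that shares were equal.

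**Figure D4:**
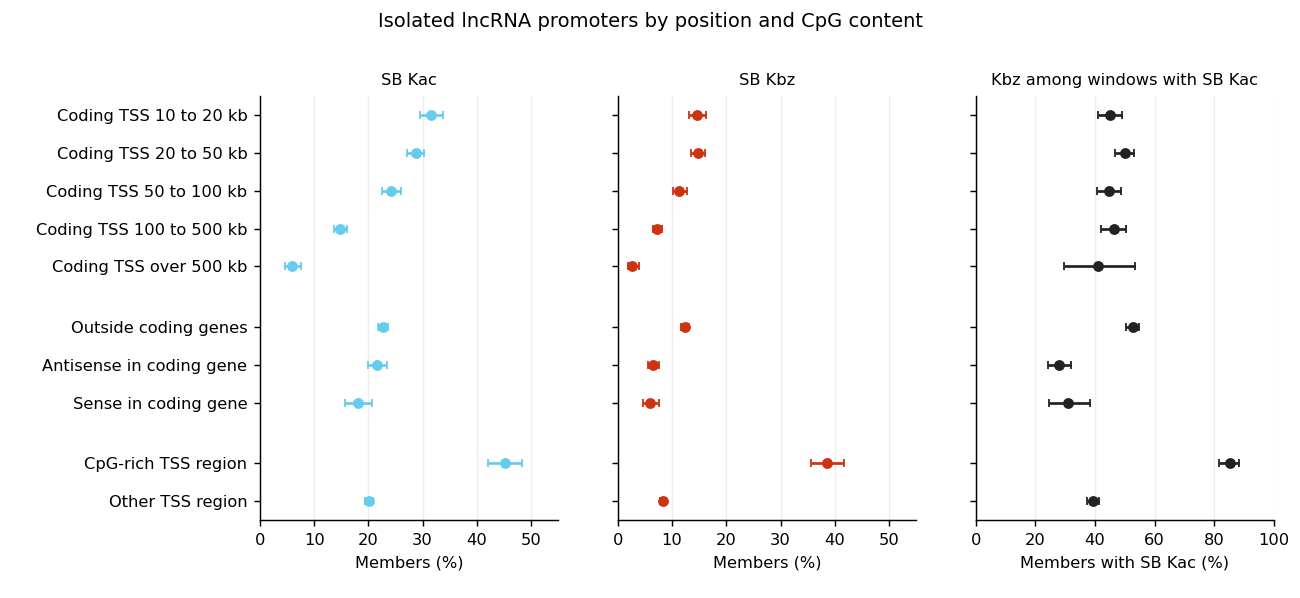
Share of members with SB Kac, share with Kbz, and share of SB Kac members with Kbz (%, points with Wilson 95% intervals) by distance to the nearest coding TSS, position relative to coding genes and CpG content. SB Kac fell from 31.6% to 5.97% with distance, while Kbz among SB Kac members stayed between 41.0% and 49.9% and differed mainly by position in genes (27.9% antisense, 52.7% outside) and by CpG content (85.2% and 39.2%).

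Members with a divergent lncRNA, whose TSS lay within 1 kb upstream on the other strand, were a small group of 401 with SB Kac in 35.4% (30.9 to 40.2) and Kbz in 29.7% (25.4 to 34.3). Kbz was present at 79.6% (72.2 to 85.4) of those with SB Kac, against 44.9% (43.0 to 46.9) of the others. Many of these members come in pairs that share a window. On chromosome X, 33 of 44 members with SB Kac had Kbz, 75.0% (60.6 to 85.4) against 46.3% (44.4 to 48.2) on the autosomes. The SB Kac peaks of the X members were stronger, at a median percentile of 86.9 against 64.9 over all members. In each of the 5 strength groups the intervals of X and autosomes overlapped. In the second group the shares were 58.3% (32.0 to 80.7) of 12 X members and 47.6% (43.6 to 51.6) on the autosomes. By chromosome, Kbz ranged from 4.85% of members on chromosome 18 and 4.94% on chromosome 4 to 17.2% on chromosome 22. Genes with an official symbol had Kbz in 14.9% of cases and those known by an Ensembl identifier alone in 9.11%.

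Genes that carry small RNAs within them held Kbz more often than other members. Of 160 members hosting a microRNA, 36.3% (29.2 to 43.9) had SB Kac and 25.6% (19.5 to 32.9) had Kbz. Of 49 members hosting a small nucleolar RNA (snoRNA), the guides of ribosomal RNA modification, 16 had SB Kac, or 32.7% (21.2 to 46.6), and 15 had Kbz, or 30.6% (19.5 to 44.5). Of the 11870 members hosting neither, 21.9% (21.2 to 22.6) had SB Kac, which lies inside the snoRNA hosts' interval, and 10.5% (9.94 to 11.0) had Kbz.

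Of 28 genes named as snoRNA host genes (SNHG), 10 were members, and 8 of these had all 3 marks. All 3 marks were present at 10.2% of all members, and Kbz at 29.9% of all genes. SNHG14 and SNHG27 had none. SNHG26, on chromosome 7, had a Kbz peak of fold 11.7 at chr7:22853782-22855453, at percentile 99.94 of the Kbz list, with control Kac at percentile 95.4 and SB Kac at 99.3. SNHG17, on chromosome 20, had Kbz of fold 10.8 at chr20:38432802-38435816 (percentile 99.85), with Kac at 99.83 and 99.84. SNHG25, on chromosome 17, stood at 95.7, 97.1 and 95.6 in control Kac, SB Kac and Kbz. These peaks covered the TSS in all 3 lists, and the TSS regions of all 3 genes were CpG-rich.

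Of the 66 members named as microRNA host genes, 33 had control Kac, 32 SB Kac and 23 Kbz. The shares were 24.7%, 22.1% and 10.7% over all members and 42.1%, 40.8% and 29.9% over all genes. MIRLET7IHG, which hosts let-7i, stood at percentile 98.6 (control Kac), 99.2 (SB Kac) and 97.7 (Kbz), with the Kbz peak over the TSS at chr12:62601941-62604017. MIR762HG stood at 98.5, 99.3 and 95.4. MIR17HG, the host of a microRNA cluster active in many cancers, stood at 85.3, 97.9 and 91.5, and its peaks lay beside the TSS without covering it.

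The strongest Kbz peak of all named members was that of LINC02323, on chromosome 14 (fold 12.5, percentile 99.98). It covered 1188 bp over the TSS at chr14:102545171-102546358, inside an SB Kac peak of 12068 bp that stood at percentile 89.0. For this gene and for SNHG26, Kbz was thus narrower than SB Kac, and its place was near the top of the Kbz list. The strongest control Kac peaks were those of LINC02901 (percentile 99.92), LINC01140 (99.88) and LINC02268 (99.87), and all 3 genes had SB Kac and Kbz as well. Of these, LINC02901 had peaks over its CpG-rich TSS in all lists, with Kbz at percentile 86.3. LINC01140 had narrow peaks downstream of its start, of 1016 bp (control Kac), 498 bp (SB Kac) and 540 bp (Kbz), none of them over the TSS.

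The strongest SB Kac peaks belonged to LINC02601 (percentile 99.95), LINC01140 (99.89) and LINC01515 (99.87). At LINC02601 control Kac stood at 98.9 and Kbz at 98.3, both over the TSS, although its promoter sequence above holds few CpGs; its TSS region of 500 bp either side was still CpG-rich. LINC01515, more than 500 kb from any coding TSS, had control Kac at 97.7 and Kbz at 94.2, over a TSS region that was not CpG-rich. Strong marks were therefore found also at single members of the classes that were marked least often.

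The longest stretches of Kbz lay at LINC02736, where 6001 bp, the whole window, was under a Kbz peak, at KLRK1-AS1 (5882 bp) and at LINC01605 (5657 bp). LINC02736 lies beside MALAT1, and both windows fall on the same SB Kac peak of 20129 bp. KLRK1-AS1 starts in the cluster of natural killer cell receptor genes on chromosome 12, and its Kac stood at percentile 97.8 in control and 98.4 in SB. LINC01605 lay in SB Kac of 29910 bp. In these 3 windows Kbz was long and of middle to high strength in its list, at percentiles 75.4, 82.6 and 51.5.

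Of the lncRNAs chosen because they are well known, 17 were members, and 12 of them had control Kac, 11 SB Kac and 10 Kbz. These genes were picked for being studied, so the count says nothing about lncRNA genes at large. MALAT1, an abundant RNA of nuclear speckles, had control Kac at percentile 98.6, SB Kac at 97.7 and Kbz at 96.4. The control Kac value is that of the long peak of the LINC02736 window, which ends upstream of the MALAT1 start, while a weaker control Kac peak covered the TSS. NEAT1, the scaffold of paraspeckles, stood at 94.1, 96.9 and 91.2. NORAD, which binds Pumilio proteins, stood at 86.8, 91.6 and 92.0. DANCR (94.0, 93.3 and 88.5), DLEU2 (88.1, 94.1 and 88.7), JPX (91.6, 99.3 and 87.5) and PVT1, downstream of MYC (80.0, 83.9 and 75.8), were likewise in the upper part of all lists. The Kbz value of DLEU2 is that of a peak at the edge of its window, and another Kbz peak covered its TSS.

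A second set of these genes stood in the upper part of the Kac lists and in the lowest part of the shorter Kbz list. KCNQ1OT1, the imprinted antisense RNA of the KCNQ1 locus, stood at percentile 78.7 in control Kac and 78.9 in SB Kac but at 24.8 in Kbz. FTX, a gene of the X inactivation centre, stood at 75.7, 70.8 and 24.3. LUCAT1, a stress-responsive RNA, stood at 78.8, 73.6 and 18.5. MEG3, an imprinted RNA, had weak Kac only, at 9.67 in control and 9.44 in SB, and BCAR4 had control Kac only, at 23.7. H19, UCA1, CYTOR, CASC15 and LINC00511 had no peak in any list.

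**Figure D5:**
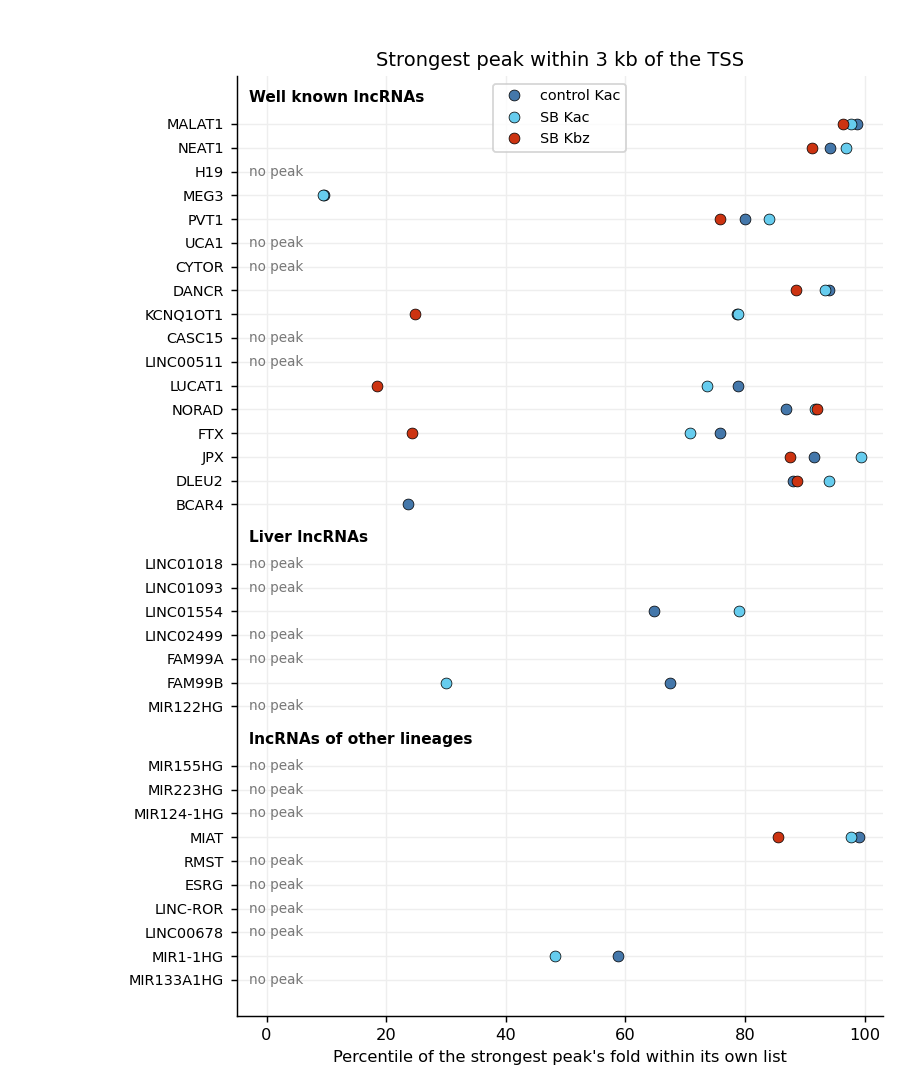
Percentile, within its own list, of the fold of the strongest peak in each window for the members among well known lncRNAs, liver lncRNAs and lncRNAs of other lineages. One point is drawn per list (control Kac, SB Kac, SB Kbz), and genes without a peak are marked so. The strongest peak may lie away from the TSS, as in control Kac of MALAT1 and Kbz of DLEU2. MALAT1, NEAT1, DANCR, NORAD, JPX and DLEU2 were high in all 3 lists, KCNQ1OT1, FTX and LUCAT1 were low in Kbz alone, and 5 of 7 liver lncRNAs had no peak, as had 71.7% of all members.

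No peak in any list was found at 71.7% of all members. Of 7 liver lncRNAs that were members, LINC01018, LINC01093, LINC02499, FAM99A and MIR122HG, the host of the main liver microRNA, had no peak in any list. LINC01554 had control Kac at percentile 64.7 and SB Kac at 79.0, and FAM99B at 67.4 and 30.0, none of them over the TSS, and neither had Kbz. Among 10 members used as lncRNAs of other lineages, MIAT, a lncRNA of neurons and heart, had all 3 marks, at 99.1 (control Kac), 97.7 (SB Kac) and 85.5 (Kbz), beside its TSS. MIR1-1HG, a host of muscle microRNAs, had Kac at 58.7 in control and 48.2 in SB and no Kbz. MIR155HG, MIR223HG, MIR124-1HG, RMST, ESRG, LINC-ROR, LINC00678 and MIR133A1HG had no peak. The liver list thus had Kac at 2 of 7 members and the other list at 2 of 10, both near the 24.7% (control) and 22.1% (SB) of all members.

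To compare acetylation before and after SB, members with Kac in 1 condition only were counted. Of 2982 members with control Kac, 725 or 24.3% (22.8 to 25.9) had no SB Kac in the window, against 10.3% over all genes, 5.77% at near-coding lncRNA genes, 4.96% at coding genes and 33.8% at isolated genes of other noncoding types. Of 2669 members with SB Kac, 412 or 15.4% (14.1 to 16.9) had no control Kac, against 7.49% over all genes and 3.58% at coding genes. Both counts rested on weak peaks. The median percentile of the control Kac peak was 33.3 where SB Kac was missing and 74.7 where it was present, and that of the SB Kac peak was 30.9 without and 70.5 with control Kac. Only 28 of the 725 and 20 of the 412 had Kbz.

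The comparison was repeated within 5 equal groups of control Kac fold. In the weakest group 46.8% (43.9 to 49.7) of members and 27.5% (25.5 to 29.5) of coding genes had no SB Kac, and in the second group 21.4% (18.3 to 24.8) and 4.32% (3.64 to 5.12). In the strongest group the shares were 2.32% (1.27 to 4.22) and 0.356% (0.199 to 0.636). Without grouping by strength, members outside the CpG-rich class lacked SB Kac more often (27.5%) than CpG-rich members (5.49%). Their control Kac peaks were also weaker, with a median percentile of 60.6 against 86.8 at CpG-rich members. With 1 library per condition and depth unknown, a weak peak missed in a shallower library and a loss of acetylation cannot be told apart.

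A window ends at 3 kb, and a broad peak can meet another list beyond it. Of the 725 members, 60 had a control Kac peak that overlapped SB Kac outside the window, and of the 412, 31 had an SB Kac peak that overlapped control Kac outside it. The named cases show this. LINC02557, with the highest control Kac fold among members without SB Kac (percentile 97.7), had a peak of 7933 bp that met SB Kac outside the window. LINC00598 (percentile 89.8) and GP6-AS1 (89.0), next in order, had short peaks of 759 and 826 bp that met none, and that of GP6-AS1 covered the TSS. LINC00638 (99.1), GAS6-AS1 (98.4) and LINC01276 (83.4), the strongest with SB Kac and no control Kac, all had SB Kac peaks that overlapped control Kac outside the window. Chosen after these values were seen, the strongest named members whose SB Kac peak met no control Kac anywhere were LINC01456 (74.0), AGAP1-IT1 (70.4) and IGFL2-AS1 (68.9), with peaks of 524, 495 and 312 bp and no Kbz.

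The same held for Kac without Kbz. LINC00963 (SB Kac percentile 95.6), LINC03042 (91.5) and LINC00365 (90.7) had the highest SB Kac fold among members with Kac in both conditions and no Kbz, and the SB Kac peak of each, between 5111 and 27719 bp long, overlapped a Kbz peak beyond 3 kb. Of 1421 members with SB Kac and no Kbz in the window, 93 were of this kind. Chosen after these values were seen, the strongest named members whose SB Kac peak met no Kbz anywhere were LINC02910 (83.5), LINC01994 (80.1) and LINC01079 (80.0). Counted over whole peaks, the SB Kac of the window met a Kbz peak at 49.9% (48.0 to 51.8) of the members with SB Kac and 84.1% (83.5 to 84.7) of the coding genes with it.

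Kbz without any Kac in the window was found at 21 members, 1.62% of those with Kbz, against 0.187% at coding genes and 0.597% over all genes. None of these Kbz peaks met a Kac peak anywhere. They were mostly weak, with a median percentile of 18.4, although the highest stood at 98.5, and their median length was 478 bp. The strongest with a symbol were LINC02439 (percentile 56.5, 359 bp), BFSP2-AS1 (21.4, 291 bp) and DNAH17-AS1 (19.6, 859 bp), and of these only the peak of DNAH17-AS1 covered the TSS. LINC02439, whose promoter is printed above, had its peak at chr12:118833175-118833533, just downstream of the TSS, and more than 100 kb from any Kac peak.

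Seen from the peak lists, member windows took up a small part of each mark. They held 3192 distinct control Kac peaks (4.54% of the list), 2804 SB Kac peaks (4.43%) and 1197 Kbz peaks (4.92%). Of the peaks more than 3 kb from every coding TSS, however, they held 10.1% (9.58 to 10.7) of 11836 Kbz peaks. The share was 6.22% for SB Kac, with an interval that ended at 6.45, and 6.17% for control Kac (5.97 to 6.39). In the lists as deposited, Kbz peaks away from coding starts thus fell in isolated lncRNA promoters more often than Kac peaks did, by more than counting error. The Kac lists are far longer, and these shares were not recomputed with lists of equal length. The part of list length in this difference was not tested.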

How the data were processed

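Chromatin was cut with micrococcal nuclease and read as 50 bp single reads. The authors mapped the reads to hg38 with Bowtie2 2.2.6, retained unique ones, dropped PCR duplicates with SAMtools 0.1.19 and called peaks per library with MACS2 2.1.1 (versions per the submitters' processing notes and the study's methods). The stated false discovery rate was 0.01, but the deposited −log10 q values reach q of 0.0487 (control Kac), 0.0494 (SB Kac) and 0.0485 (Kbz). The deposited fold is a linear ratio over background averaged over a broad peak, used only to rank peaks within a list. Thresholds were set on the deposited −log10 q and −log10 p. Which background track was used is not given in the sources used here. Depth is unknown, and intervals cover counting error only.

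Peaks were used as deposited, apart from 3 in the control Kac list that lay on unplaced or other sequences. Genes came from GENCODE 44. Calculations used Python 3.11.15, pandas 2.3.3, scipy 1.17.1 and pysam 0.24.0. Overlap counting was checked on simulated regions, and 0 of 3 counts differed from bedtools 2.31.1. Named genes were members with a symbol: the 3 highest by fold in each list and in each discordant class, the 3 with most Kbz bases, the 3 highest host genes by Kbz, and all members of the lncRNA lists. The members and lists were chosen with earlier results of these data known. By symbol, 2100 members matched a RefSeq promoter, 1629 with a start within 1 kb. Input libraries were not used here. One marker gene is not reported here.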

Additional observations from a re-analysis of the deposited data

How the results depend on the processing

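No paired analysis was possible because no group had more than 1 library, so that leaving one out was not possible either. For the 6 main shares, in the order control Kac, SB Kac, Kbz, control Kac without SB Kac, SB Kac without control Kac, and Kbz among SB Kac, 63 recomputed values gave 24 inside the interval of the reported share and 39 outside it. A −log10 q of at least 2 gave 21.95%, 18.6%, 10.0%, 26.1%, 12.9% and 52.0%. A −log10 q of at least 5 gave 10.6%, 9.48% and 6.11% for the marks and 61.0% for Kbz among SB Kac, and the top 15000 peaks per list by −log10 p gave 8.89%, 8.11%, 7.40%, 26.2%, 19.1% and 78.1%. These thresholds leave fewer and stronger Kac peaks. A 1 kb window gave 18.4%, 16.3%, 8.46%, 25.9% and, for Kbz among SB Kac, 49.97%. Requiring the peak to cover the TSS gave 12.4%, 11.0%, 5.80%, 27.7%, 18.0% and 50.7%, and requiring 500 bp in the window gave 21.1%, 18.6%, 8.68%, 26.6% and, for Kbz among SB Kac, 44.7%. Isolation by 20 kb gave 23.1%, 20.4% and 10.04% for the marks, and merging overlapping windows gave 10.03% for Kbz and 44.6% for Kbz among SB Kac. Isolation from any transcript of a coding gene and the canonical transcript start moved no share beyond its interval. Overlap of whole peaks, chosen after seeing the data, gave 16.9% for SB Kac without control Kac and 49.9% for Kbz among SB Kac. Depth is unknown and was not varied.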

Other observations

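When every annotated transcript start of a member was used in place of the start of the gene record, 3258 members (27.0%) had control Kac, 2950 (24.4%) SB Kac and 1468 (12.2%) Kbz, which added 276, 281 and 171 members. Members whose start lay within 1 kb of that of a RefSeq gene of the same symbol, 1629 in all, had control Kac in 35.1%, SB Kac in 30.2% and Kbz in 18.2%. The 9975 members without a RefSeq symbol had 22.9%, 20.8% and 9.53%. Members recorded by both annotations were thus marked more often in each list.

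By the number of exons of the gene, Kbz was present at 14.3% (12.6 to 16.2) of 1475 members with a single exon, 10.1% (9.26 to 11.0) of 4430 with 2 exons and 10.3% (9.61 to 11.1) of 6170 with 3 or more. Members with the start of another gene in the window, 2309 in all, had Kbz in 19.1% (17.6 to 20.8), and the 9766 with none in 8.75% (8.21 to 9.33). Members of these windows can share a peak.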
